A study of Homo sapiens with 12 samples.

Results

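The comparison described here sets tumours that received a p38 inhibitor together with an EZH2 inhibitor against tumours that received the EZH2 inhibitor alone. It holds 6 of the 12 libraries of the series, 3 per group, taken by their treatment labels. All genes that passed a filter on low counts were compared, 12831 of 25369 gene symbols. MDA-MB-231, a widely used cell line of triple-negative breast cancer, gave rise to the tumours after cells in 50 µl of Matrigel had been placed in the right inguinal mammary fat pad of each mouse. Treatment by intraperitoneal injection on 5 days per week began when tumours had reached 100 mm3. The combination group received SB202190, which inhibits the p38 MAP kinases, and EPZ-6438 (tazemetostat), which inhibits the histone methyltransferase EZH2. The EZH2i group received the EZH2 inhibitor, given there as EPZ-6428, at 10 mg/kg/day. The labels name both spellings, and they do not restate the doses for the combination. The p38i group, used below to set the same compound in tumours without the EZH2 inhibitor, received SB202190 at 1 mg/kg/day. The control group received the carrier of 4% DMSO, 30% PEG 300 and 5% Tween 80. The labels give 10 mice per group. They give no strain, age or duration of treatment, and they do not say that each library came from a separate mouse, so the p-values measure the spread between these samples, which may be technical in part. All groups share 1 cell line, so each group is a model of that line only.

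The p38 kinases are activated by stress and inflammatory signals through the kinases MAP2K3 and MAP2K6. They act through MAPKAPK2, which phosphorylates the small heat shock protein HSPB1 and the RNA-binding protein ZFP36, and so control the stability of many cytokine messages, and through transcription factors such as ATF2 and MEF2. EZH2 is the catalytic subunit of Polycomb repressive complex 2 (PRC2), which methylates histone H3 and represses genes. The title of the series concerns a link from EZH2 to p38 signalling in breast cancer progression. The question here is what the p38 inhibitor adds to the transcript levels of a tumour in which EZH2 is already inhibited.

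The 6 libraries held at most 4467942 counts (combination 9-1) and at least 2208771 counts (EZH2i 6-1). Spearman correlations of log2 levels across genes were 0.967 to 0.98 among combination libraries, 0.949 to 0.962 among EZH2i libraries and 0.954 to 0.976 between the groups. Over the 500 genes that varied most, the first principal component (48.9% of the variance) did not separate the groups. The combination libraries scored -10.6, 9.79 and 9.70, between EZH2i 5-4 at -29.0 and EZH2i 6-1 at 18.7. Transcripts that define the line were present in all 6 libraries. VIM, a mesenchymal filament gene, lay between 3960 and 6371 CPM (counts scaled to a library size of 1000000) in combination and between 3806 and 6423 CPM in EZH2i tumours. ESR1 and PGR, the hormone receptors that triple-negative cells lack, lay below 14 CPM in each of the 6 libraries but were not absent. ERBB2, also listed beforehand as low in this line, lay between 21.9 and 30.6 CPM in combination and between 16.7 and 21.8 CPM in EZH2i tumours.

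No gene passed the threshold when the p38 inhibitor was added to the EZH2 inhibitor. Of 12831 genes tested with edgeR's quasi-likelihood test, 0 were higher and 0 were lower at a Benjamini-Hochberg adjusted p under 0.05, which is 0% of the genes. The smallest adjusted p was 0.993, and every gene of this comparison named below had an adjusted p of at least that value. At an unadjusted p under 0.05 there were 376 genes, 2.93% of those tested, with 178 higher and 198 lower in the combination. For 911 genes, 7.1% of those tested, the combination libraries all lay on 1 side of the EZH2i libraries, 431 above and 480 below. Without any difference, a gene has a probability of 0.1 that 3 against 3 libraries lie fully apart. The probability of an unadjusted p under 0.05 is then 0.05, and both shares seen here were below these values. Groups given below as apart or without overlap are therefore a description of the libraries. DESeq2 called 1 gene, PTX3 (adjusted p = 0.0359, with 321 genes at an unadjusted p under 0.05), and limma-voom called 0, with 464 genes at an unadjusted p under 0.05.

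The differences were small for most genes. The median log2 fold change was -0.016, the median size was 0.18, and the middle 90% of genes lay between -0.52 and 0.59. The 95% confidence interval of the log2 fold change lay within -1 and 1, so within a 2-fold change either way, for 8669 genes (67.6%). Among the 10730 genes with a mean of at least 5 CPM these were 8572 (79.9%). Intervals within -0.5 and 0.5 were reached by 2180 genes (17%), so for most genes these libraries left differences of 0.5 open. The number of genes at an unadjusted p under 0.05 depended on single libraries: it was 203 without combination 9-1, 590 without combination 8-1, 606 without EZH2i 5-4 and 1042 without EZH2i 6-1, and no gene passed the threshold in any of these.

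**Figure D1:**
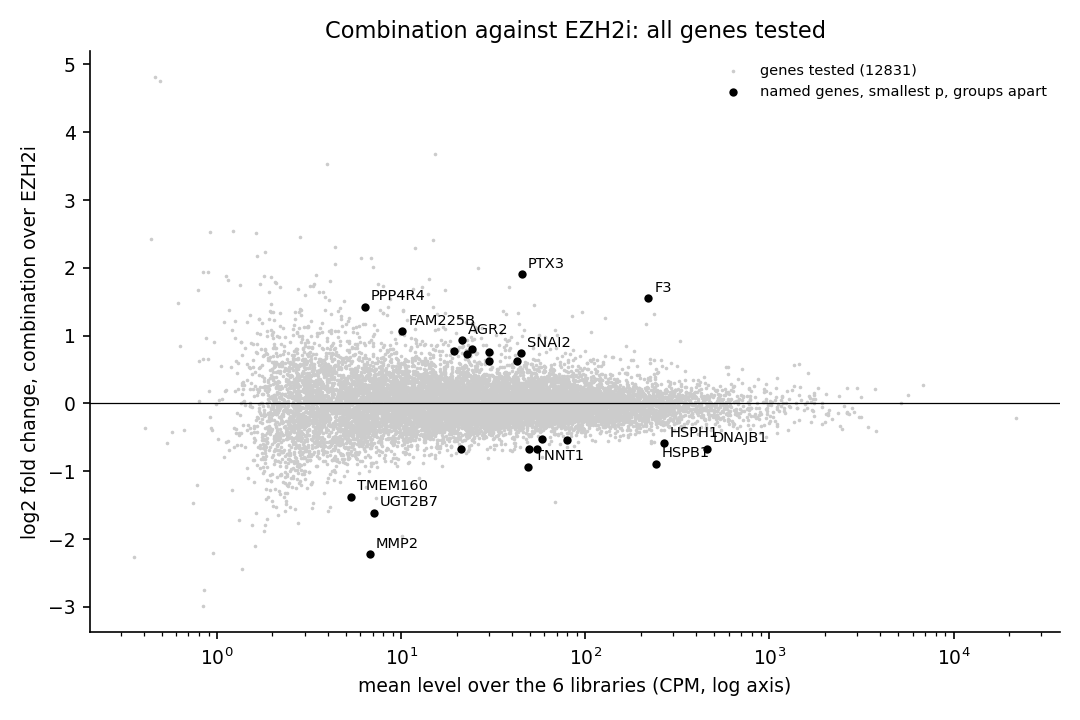
Log2 fold change of combination over EZH2i tumours (vertical axis) against the mean level over the 6 libraries in CPM (horizontal log axis), 1 point per gene tested. Black points are the 24 genes of smallest unadjusted p whose mean reached 5 CPM and whose groups did not overlap; none passed the threshold, and the other genes spread evenly around 0, more widely at low levels.

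On the higher side, PTX3, F3 and SNAI2 were among the 12 genes chosen by their unadjusted p. The 12 with the smallest p among genes with a mean of at least 5 CPM and groups apart had log2 fold changes between 0.62 and 1.91; since they were chosen by p in this comparison, their values are a description. PTX3, a secreted pentraxin that takes part in innate immunity, measured 34.4, 98.9 and 81.8 CPM in combination tumours 8-1, 9-1 and 9-2, against 17.7, 25.1 and 13.6 CPM in EZH2i tumours 5-3, 5-4 and 6-1. The lowest combination library, 8-1, lay close to the highest EZH2i library, and the other two lay far above. The edgeR log2 fold change was 1.91 (SE 0.43, 95% interval 0.98 to 2.83, unadjusted p = 0.000731). F3, which encodes tissue factor, the cell-surface trigger of blood clotting, measured 225, 423 and 336 CPM in combination and 76, 107 and 153 CPM in EZH2i tumours. Its groups did not overlap, although the libraries of each group spread widely (log2 fold change 1.55, SE 0.43, unadjusted p = 0.00442). SNAI2, a transcription factor of the epithelial-mesenchymal transition, measured 57.7, 58.6 and 52 CPM in combination and 26.2, 33.1 and 41.3 CPM in EZH2i tumours (log2 fold change 0.75, SE 0.21, unadjusted p = 0.00269). The combination libraries were tightly grouped above a wider spread of EZH2i libraries.

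FAM155A, an accessory subunit of the sodium leak channel NALCN, measured 24.1, 27.3 and 21.6 CPM in combination and 15.3, 12 and 15.8 CPM in EZH2i tumours (log2 fold change 0.77, SE 0.21, unadjusted p = 0.00243). FAM225B, a long non-coding RNA, measured 13.5, 15.7 and 11.7 CPM in combination and 5.63, 6.52 and 7.48 CPM in EZH2i tumours (log2 fold change 1.07, SE 0.27, unadjusted p = 0.00119). AGR2, a protein disulfide isomerase of the secretory pathway, measured 29.4, 28.7 and 26 CPM in combination and 15.3, 10.8 and 18.5 CPM in EZH2i tumours (log2 fold change 0.94, SE 0.30, unadjusted p = 0.00646). In all 3 genes the spread within each group was narrower than the gap between the group means. SLCO3A1, an organic anion transporter, measured 36.5, 27.8 and 28.9 CPM in combination and 16.9, 17.8 and 18.5 CPM in EZH2i tumours, and the EZH2i libraries lay close together. RAP1GAP2, which inactivates the small GTPase Rap1, had a log2 fold change of 0.76 (SE 0.22). PARP9, a partner in interferon signalling, measured 47.4, 62.1 and 45 CPM in combination and 31.8, 30.8 and 38.3 CPM in EZH2i tumours. The remaining genes on this side were SLC25A42, the mitochondrial coenzyme A carrier (log2 fold change 0.74), PPP4R4, a regulatory subunit of protein phosphatase 4 (1.43), and the cilium gene KIAA0556 (0.62).

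On the lower side 3 heat shock genes, HSPB1, HSPH1 and DNAJB1, were among the 12 genes chosen in the same way. Their values are given with their list below. MMP2, a gelatin-degrading metalloproteinase, measured 1.47, 2.41 and 3.49 CPM in combination and 5.63, 22.3 and 5.28 CPM in EZH2i tumours (log2 fold change -2.22, SE 0.61, unadjusted p = 0.00253). EZH2i 5-4 was far above the other EZH2i libraries, and without it the log2 fold change was -1.15. UGT2B7, a glucuronosyltransferase of steroid and drug metabolism, measured 3.82, 4.16 and 2.54 CPM in combination and 6.84, 15.5 and 9.67 CPM in EZH2i tumours (log2 fold change -1.61, SE 0.38, unadjusted p = 0.000804). UGT2B7 has close paralogues, so how the counting split reads among them is uncertain. TNNT1, the troponin T of slow muscle, measured 42.4, 29.7 and 29.8 CPM in combination and 62.8, 87.2 and 42.7 CPM in EZH2i tumours (log2 fold change -0.93, SE 0.28, unadjusted p = 0.00475). STK11, which encodes the kinase LKB1 that activates AMPK, measured 42.9, 33.5 and 39 CPM in combination and 57.5, 71.2 and 54.5 CPM in EZH2i tumours (log2 fold change -0.67, SE 0.21, unadjusted p = 0.00547). The groups of STK11 were apart, with little spread in either.

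EPG5, a tethering factor of autophagy, measured 58.8, 70.2 and 66.3 CPM in combination and 97, 89.2 and 97.6 CPM in EZH2i tumours (log2 fold change -0.54, SE 0.16, unadjusted p = 0.00481). SHOX2, a homeobox transcription factor, measured 50.9, 49.9 and 42.5 CPM in combination and 71.6, 69.2 and 66.4 CPM in EZH2i tumours (log2 fold change -0.53, SE 0.16, unadjusted p = 0.00536). CCDC112, a coiled-coil protein gene, measured 43.5, 37.4 and 45.7 CPM in combination and 71.2, 69.9 and 58.9 CPM in EZH2i tumours (log2 fold change -0.66, SE 0.18, unadjusted p = 0.0021). In these 3 genes all 6 libraries were close to their group mean, and the differences were under 1 on the log2 scale. TMEM160 (log2 fold change -1.37) and BMS1P4 (-0.68) completed the set; BMS1P4 is a pseudogene with near-identical copies, so its counts are uncertain.

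**Figure D2:**
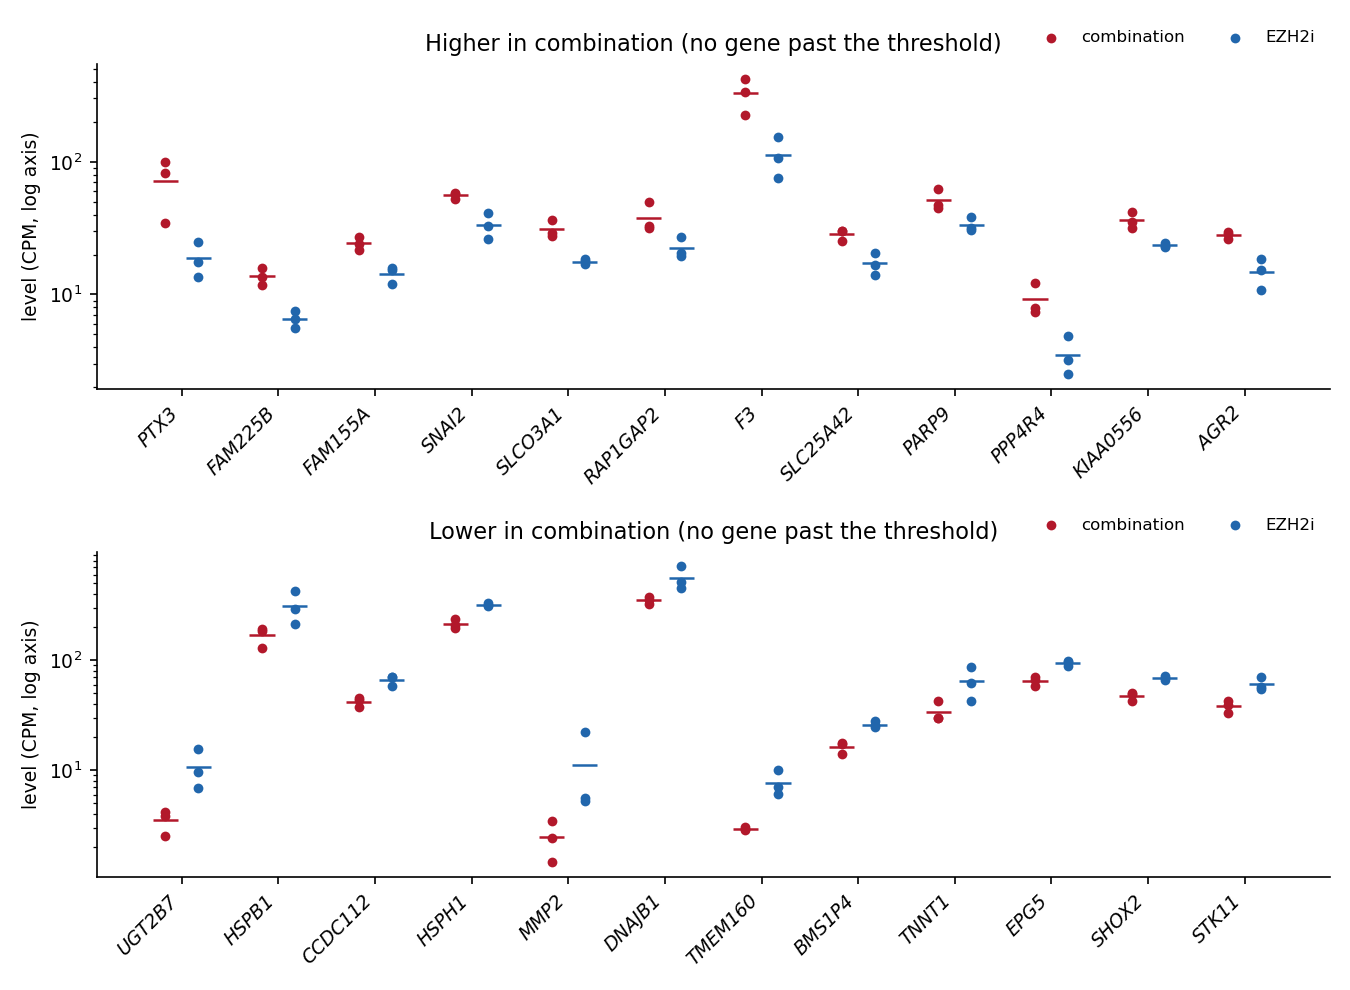
Level in CPM (vertical log axis) of the 24 genes in each of the 3 combination (red, left of each pair) and 3 EZH2i libraries (blue), with bars at the group means. The groups do not overlap in any gene because non-overlap was part of the choice; MMP2 in EZH2i and PTX3 in combination tumours spread most widely within a group.

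The p38i and control tumours share no library with the combination and EZH2i tumours, so they hold a separate measure of what the p38 inhibitor does to these genes. Of the 12 genes on the higher side, 5 were also higher and 7 were lower in p38i than in control tumours. Of the 12 on the lower side, 1 was lower and 11 were higher in p38i than in control tumours. The gene that was lower in both was STK11, named by its value, with a log2 fold change of -0.67 in the combination over EZH2i and -0.43 in p38i over control. None of the 24 passed the threshold in p38i against control, where 0.0156% of genes did. Over all genes tested, 46.7% had the same sign in both comparisons. Among genes with an unadjusted p under 0.05 in p38i against control, 34.9% did.

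Heat shock chaperones, which refold damaged proteins and are induced by the factor HSF1, were lower in the combination in most cases, although none passed the threshold. All 15 listed genes were tested, and 3 had a positive and 12 a negative log2 fold change, with a median of -0.33 beside -0.016 over all genes, of which 47.8% were positive; the list's median was -0.21 without combination 9-1. At an unadjusted p under 0.05, 3 were lower and 0 higher, beside 2.93% of all genes in either direction. HSPB1, the small heat shock protein that MAPKAPK2 phosphorylates, measured 183, 193 and 131 CPM in combination, 431, 293 and 215 CPM in EZH2i, 301 and 225 CPM in p38i and 167, 167 and 169 CPM in control tumours. All 3 combination libraries lay below the EZH2i libraries, and EZH2i 5-3 was highest (log2 fold change -0.89, SE 0.23, unadjusted p = 0.00152); without EZH2i 5-3 the log2 fold change was -0.59. HSPH1, a nucleotide exchange factor of HSP70, measured 195, 209 and 235 CPM in combination, 318, 329 and 314 CPM in EZH2i, 307 and 215 CPM in p38i and 125, 111 and 135 CPM in control tumours. The EZH2i libraries of HSPH1 lay within a narrow range above all combination libraries, and its control libraries lay below all combination libraries (log2 fold change -0.59, SE 0.16, unadjusted p = 0.00221).

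DNAJB1, a co-chaperone that delivers proteins to HSP70, measured 379, 325 and 356 CPM in combination, 715, 515 and 450.3 CPM in EZH2i, 659 and 484 CPM in p38i and 312, 261 and 263 CPM in control tumours. The order was the same as for HSPH1, with the combination between EZH2i and control (log2 fold change -0.67, SE 0.18, unadjusted p = 0.00271). HSP90AA1, the inducible HSP90 and the member with the most counts, measured 3281, 2436 and 3361 CPM in combination and 4833, 3438 and 3332 CPM in EZH2i tumours, and these groups overlapped (log2 fold change -0.35, SE 0.19, unadjusted p = 0.0771). HSF2, another heat shock factor, had a log2 fold change of -0.35 (SE 0.17). HSPA5, the chaperone of the endoplasmic reticulum, belongs to the list of the unfolded protein and integrated stress response; it measured 1139, 983 and 1149.6 CPM in combination and 1757, 1417 and 1117 CPM in EZH2i tumours (log2 fold change -0.39, SE 0.18, unadjusted p = 0.0421). Over that list 10 of 19 genes were positive, with a median of 0.055.

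The stretches before the starts of the 3 heat shock genes of smallest unadjusted p are shown because HSF1 binds repeats of the letters GAA and TTC there. They are the 250 bases before a start in the RefSeq table of GRCh38.p14, on the gene's own strand, with each GAANNTTC in capitals. This motif reads the same on both strands.
HSPB1, chr7:76302423-76302672, plus strand: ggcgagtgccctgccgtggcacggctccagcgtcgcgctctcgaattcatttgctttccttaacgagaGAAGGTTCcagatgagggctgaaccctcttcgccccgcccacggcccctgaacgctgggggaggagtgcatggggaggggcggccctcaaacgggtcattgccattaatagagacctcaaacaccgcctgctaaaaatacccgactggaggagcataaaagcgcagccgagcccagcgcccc
DNAJB1, chr19:14518398-14518647, minus strand: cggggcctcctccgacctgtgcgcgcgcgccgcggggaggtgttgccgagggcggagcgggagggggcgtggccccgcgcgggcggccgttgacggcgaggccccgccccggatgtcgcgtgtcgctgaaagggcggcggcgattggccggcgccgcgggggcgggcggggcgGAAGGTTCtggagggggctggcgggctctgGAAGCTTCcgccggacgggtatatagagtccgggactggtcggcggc
HSPH1, chr13:31162389-31162638, minus strand: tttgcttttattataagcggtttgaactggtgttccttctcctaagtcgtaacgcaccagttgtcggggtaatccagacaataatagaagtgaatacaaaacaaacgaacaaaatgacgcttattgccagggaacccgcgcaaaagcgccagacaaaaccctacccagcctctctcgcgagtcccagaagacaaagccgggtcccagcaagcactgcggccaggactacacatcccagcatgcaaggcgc
HSPB1 held 1 match, starting 182 bases before the start. DNAJB1 held 2, at 77 and 47 bases before it, in the window of 1 of its 3 annotated starts. HSPH1 held no GAANNTTC in this window. Of 14 heat shock genes found in the table, 9 (64.3%) held the motif in at least 1 window, beside 560 of 9504 tested genes found there (5.89%) and 5.78% of all 35116 windows. Since heat shock chaperones are known to be induced by HSF1, a high share follows from the choice of this list and not from the comparison. A match is a run of letters and says nothing about binding in these tumours.

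Genes that respond to glucocorticoids were mostly on the higher side. Of 15 tested, 14 were positive, with a median of 0.42 (0.27 without combination 8-1), and 0 passed the threshold. FKBP5, a co-chaperone of steroid receptors, measured 35.3, 47 and 49.1 CPM in combination, 16.9, 18 and 30.8 CPM in EZH2i, 20.6 and 38.9 CPM in p38i and 190.4, 140.5 and 85 CPM in control tumours. The combination libraries lay above the EZH2i libraries, and both lay far below the controls (log2 fold change 1.02, SE 0.33, unadjusted p = 0.00904). METTL7A, a lipid droplet protein gene, measured 19.7, 20.1 and 19.3 CPM in combination and 19.3, 10.8 and 17.2 CPM in EZH2i tumours, beside 67.8, 41.6 and 44.5 CPM in control tumours. Among these combination and EZH2i libraries EZH2i 5-4 lay below the rest (log2 fold change 0.35, SE 0.27, unadjusted p = 0.219). GLUL, glutamine synthetase, had a log2 fold change of 0.43 (SE 0.20), and DUSP1, the phosphatase that switches off p38, had 0.51 (SE 0.30).

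Cytokine messages and NF-kB targets were also mostly positive without passing. In the list of p38-responsive cytokine and AU-rich transcripts, whose decay p38 is known to control, 13 of 23 were high enough to test and 11 were positive. The median was 0.55, and 0.24 without combination 9-1. At an unadjusted p under 0.05, 3 members were higher and 1 was lower, where 2.93% of all genes were past this level in either direction. IL11, a cytokine of the IL-6 family, measured 34.4, 25.8 and 37.4 CPM in combination and 15.7, 23.8 and 18 CPM in EZH2i tumours, with no overlap (log2 fold change 0.74, SE 0.34, unadjusted p = 0.0456). CXCL8, the neutrophil chemokine interleukin 8, measured 32.4, 51.6 and 55.2 CPM in combination and 34.6, 27.3 and 18.5 CPM in EZH2i tumours, and combination 8-1 lay inside the EZH2i range (log2 fold change 0.79, SE 0.35, unadjusted p = 0.0428). CXCL2, a related chemokine with near-identical copies, reached 2.35, 12.2 and 6.98 CPM in combination and 2.82, 2.26 and 2.64 CPM in EZH2i tumours, and its counts are uncertain. The members with a negative value were MMP1 and IER3. MMP1, a collagenase, measured 8.24, 14.4 and 12.4 CPM in combination and 16.5, 35.1 and 13.6 CPM in EZH2i tumours (log2 fold change -0.92, SE 0.42, unadjusted p = 0.0489), and its log2 fold change was -0.36 without EZH2i 5-4. IER3, an early response gene that limits apoptosis and the member with the most counts, had a log2 fold change of -0.26 (SE 0.20).

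Of 16 NF-kB targets tested, 15 were positive, with a median of 0.33 (0.19 without EZH2i 6-1). This list shares members with the cytokine list, among them CXCL2 and CXCL8, so the lists are not separate observations. NFKB1, a subunit of the factor itself, measured 64.4, 66.5 and 72.6 CPM in combination and 51.1, 53.9 and 51 CPM in EZH2i tumours, which did not overlap (log2 fold change 0.38, SE 0.16, unadjusted p = 0.0277). TNFAIP2 measured 101, 214 and 98.3 CPM in combination and 45.1, 30.1 and 89.3 CPM in EZH2i tumours, with a wide spread in both. NFKBIA, the inhibitor that NF-kB itself induces, had a log2 fold change of 0.18 (SE 0.21). Among 17 antigen presentation genes, 14 were positive, with a median of 0.37 (0.18 to 0.24 without combination 8-1, combination 9-1 or EZH2i 6-1). B2M, the light chain of class I, had a log2 fold change of 0.14 (SE 0.18), and HLA-E, a class I gene whose reads may be split with close relatives, had -0.30 (SE 0.18). Type I interferon response genes were centred on 0, with 14 of 24 positive and a median of 0.042; ISG15 had -0.62 and IFI44 0.71.

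Among transcripts of the p38 kinases, MAPK14 and MAPK13 showed small differences. Since the compounds block the activity of their targets, the transcripts below are no check of treatment. MAPK14, the gene of p38 alpha, measured 99.4, 135 and 130.3 CPM in combination and 92.1, 147 and 109 CPM in EZH2i tumours (log2 fold change 0.064, SE 0.18, unadjusted p = 0.731, 95% interval -0.32 to 0.45). MAPK13, p38 delta, measured 144, 127 and 101 CPM in combination and 105, 161 and 106 CPM in EZH2i tumours (log2 fold change -0.00055, SE 0.20, unadjusted p = 0.998, 95% interval -0.42 to 0.42). The groups overlapped in both genes. MAPK12, p38 gamma, lay between 1.21 and 3.28 CPM in the 6 libraries, and its interval left a 2-fold change open (log2 fold change 0.55, SE 0.56, 95% interval -0.64 to 1.74). MAPK11, p38 beta, with 0 to 10 counts in each of the 6 libraries, did not pass the filter. Of 16 kinases and activators tested, 12 were positive with a median of 0.057, and the member with the smallest p was TAB3, an adaptor of the kinase MAP3K7 (log2 fold change 0.59, SE 0.29, unadjusted p = 0.0585). MAP2K3, the activating kinase, had a log2 fold change of 0.39 (SE 0.24).

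Downstream of p38, 17 of 21 kinases and factors were positive, with a median of 0.14, and HSPB1 was the lowest. MAPKAPK2, the kinase that carries the p38 signal to RNA-binding proteins, measured 169, 150.3 and 147 CPM in combination and 176, 194 and 146 CPM in EZH2i tumours (log2 fold change -0.15, SE 0.18, unadjusted p = 0.432). ELK1, an ETS transcription factor, measured 23.5, 30.4 and 28.9 CPM in combination and 15.3, 9.27 and 22.4 CPM in EZH2i tumours, with no overlap (log2 fold change 0.85, SE 0.31, unadjusted p = 0.0145). MAPKAPK5 had a log2 fold change of 0.36 (SE 0.22), and ZFP36L1, which promotes decay of AU-rich messages, had 0.23 (SE 0.20). Feedback phosphatases and Sprouty genes had a median of 0.092 over 14 genes; DUSP4, which had the most counts, measured 1176, 1176 and 1188 CPM in combination and 1207, 703 and 1523 CPM in EZH2i tumours. AP-1 and immediate early genes had a median of 0.083 over 19 genes. MYC measured 48.5, 134 and 96.4 CPM in combination and 30.6, 28.8 and 74.8 CPM in EZH2i tumours, so the spread within groups was as large as the difference (log2 fold change 1.08, SE 0.70, unadjusted p = 0.162).

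Among PRC2 subunits, EZH2 measured 162, 119.6 and 135 CPM in combination and 143, 160.4 and 158 CPM in EZH2i tumours, with overlapping groups (log2 fold change -0.15, SE 0.19, unadjusted p = 0.441). RBBP7, a histone-binding subunit, measured 167, 175 and 226 CPM in combination and 89.7, 128 and 142 CPM in EZH2i tumours (log2 fold change 0.66, SE 0.23, unadjusted p = 0.0124). EED, which reads methylated histone H3, measured 105, 111 and 97 CPM in combination and 59.9, 76.2 and 85.3 CPM in EZH2i tumours (log2 fold change 0.50, SE 0.19, unadjusted p = 0.0184). Both were above all EZH2i libraries in each combination library, while EZH1 (-0.30) and JARID2 (-0.20) had negative log2 fold changes and the median over 13 genes was -0.036. Of 22 genes reported elsewhere to be repressed by EZH2, 15 were positive, with a median of 0.13, and 0 had an unadjusted p under 0.05. TIMP3, a metalloproteinase inhibitor, measured 2763, 3986 and 1746 CPM in combination and 2749.9, 2426 and 2076 CPM in EZH2i tumours (log2 fold change 0.23, SE 0.29, unadjusted p = 0.438). DKK1, a Wnt antagonist, had a log2 fold change of 0.55 (SE 0.40), CDKN1C 0.29 (SE 0.23) and TMEM158 -0.43 (SE 0.22). CDH1, E-cadherin, measured 42.4, 40.5 and 0.951 CPM in combination and 4.43, 0.251 and 2.64 CPM in EZH2i tumours, and it varied by more between combination libraries than between the groups (log2 fold change 3.68, SE 1.80, unadjusted p = 0.0757).

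Genes of adhesion and invasion were mixed. Beside SNAI2, the mesenchymal list held SNAI1, a related repressor at 3.53, 3.94 and 2.22 CPM in combination and 1.61, 0.752 and 0.44 CPM in EZH2i tumours (log2 fold change 1.78, SE 0.63, unadjusted p = 0.0131), and THBS1, a matrix glycoprotein at 127, 171 and 158 CPM in combination and 79.7, 111 and 106 CPM in EZH2i tumours (log2 fold change 0.62, SE 0.25, unadjusted p = 0.0272). The groups were apart in both, yet the median over 20 mesenchymal genes was 0.06, and FN1, fibronectin, had a log2 fold change of 0.13 (SE 0.32). Epithelial genes had a median of 0.25 over 17 genes, with EPCAM at 0.82, GRHL2 at 1.79 and CLDN7, a tight junction claudin, at -0.44. The EPCAM groups overlapped, at 27.9 to 65.3 CPM in combination and 23.7 to 35.3 CPM in EZH2i tumours. The list's median level in log2 CPM was 6.04, 5.85 and 5.00 in combination 8-1, 9-1 and 9-2. It was 4.87, 5.37 and 4.97 in EZH2i 5-3, 5-4 and 6-1, so combination 9-2 lay inside the EZH2i range. Metalloproteinases, the urokinase system and TIMPs had a median of -0.10 over 20 genes. ADAMTS1, a protease that cleaves proteoglycans, measured 19.7, 49.7 and 39.9 CPM in combination and 89.7, 124 and 85.8 CPM in EZH2i tumours, with no overlap (log2 fold change -1.45, SE 0.70, unadjusted p = 0.0712). MMP9 measured 2.06, 1.75 and 1.9 CPM in combination and 5.63, 1.5 and 6.6 CPM in EZH2i tumours.

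Integrin subunits had a median of 0.058 over 17 genes, and ITGA6, which had the most counts, had a log2 fold change of 0.069 (SE 0.21). Among TGF-beta and activin pathway genes, INHBB, a subunit of activin B, measured 4.12, 8.31 and 8.56 CPM in combination and 1.61, 1 and 2.64 CPM in EZH2i tumours, with no overlap (log2 fold change 2.06, SE 0.63, unadjusted p = 0.00507). The EZH2i values of INHBB rested on 4, 4 and 6 counts. The TGF-beta and activin list had a median of 0.16 with 13 of 20 positive. Of 13 BMP targets and inhibitory SMADs, 6 were positive, with a median of -0.056; ID1 measured 83.3, 171 and 71 CPM in combination, 82.1, 22.6 and 86.6 CPM in EZH2i, 30.6 and 30.4 CPM in p38i and 179, 204 and 273 CPM in control tumours. SMAD6, an inhibitory SMAD, had a log2 fold change of 0.48 (SE 0.25). Among YAP and TEAD targets 13 of 15 were positive with a median of 0.12 (0.014 to 0.32 without combination 8-1, combination 9-1, EZH2i 5-3 or EZH2i 5-4), and F3 was the highest. Notch pathway genes had a median of 0.28 (-0.0033 to 0.17 without combination 9-1, combination 9-2, EZH2i 5-3 or EZH2i 5-4); JAG1, a Notch ligand, measured 262, 321 and 235 CPM in combination and 183, 197 and 227 CPM in EZH2i tumours (log2 fold change 0.43, SE 0.18, unadjusted p = 0.0345). EGF receptor family and ligand genes had a median of 0.29 (0.14 without combination 9-1), with ERBB2 at 0.43 (SE 0.21).

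Lists of proliferation genes had medians close to 0 with all libraries in the fit, but these depended on single libraries. G2/M genes had a median of 0.043 with 13 of 24 positive (-0.16 without EZH2i 5-3 and 0.27 without EZH2i 5-4). S phase and E2F genes had 0.043 with 11 of 19 (-0.052 without EZH2i 5-3 and 0.11 without EZH2i 5-4). Replication-dependent histone genes had 0.042 with 6 of 10 (-0.45 without combination 8-1 and 0.21 without combination 9-2). TOP2A, topoisomerase II alpha, measured 1235, 781 and 1011 CPM in combination and 902, 1139 and 1033 CPM in EZH2i tumours (log2 fold change -0.023, SE 0.21, unadjusted p = 0.914), and its interval of -0.47 to 0.43 lay within a 2-fold change. UHRF1, which recruits the maintenance DNA methyltransferase, measured 22.4, 29.5 and 28.5 CPM in combination and 12.1, 11.8 and 15.4 CPM in EZH2i tumours, with no overlap (log2 fold change 1.04, SE 0.38, unadjusted p = 0.0148). CDK inhibitors and p53 targets had a median of 0.051. BCL2 family and death receptor genes had a median of -0.067, with 10 positive and 11 negative. The lowest was BCL2 (log2 fold change -0.82) and the highest was the death receptor gene TNFRSF10B (0.49). In this family BAX, which promotes apoptosis, measured 73.5, 67.4 and 72.3 CPM in combination and 94.5, 94 and 82.7 CPM in EZH2i tumours, with no overlap (log2 fold change -0.35, SE 0.14, unadjusted p = 0.0294). MCL1, which opposes it, measured 415, 554 and 534 CPM in combination and 311, 377 and 459 CPM in EZH2i tumours, and these overlapped (log2 fold change 0.39, SE 0.18, unadjusted p = 0.047).

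The remaining pathway lists were also centred near 0. Hypoxia and glycolysis genes had a median of 0.0011, cholesterol synthesis genes 0.027, NRF2 targets 0.012, breast stem cell associated genes 0.069, oxidative phosphorylation genes 0.065, cytosolic ribosomal protein genes -0.037 and housekeeping genes -0.02. For all 30 ribosomal protein genes the 95% interval lay within a 2-fold change. FTL, a ferritin chain, measured 666, 784 and 807 CPM in combination and 1338, 961 and 755 CPM in EZH2i tumours (log2 fold change -0.44, SE 0.19, unadjusted p = 0.0376). VEGFA, the angiogenic growth factor, measured 273, 519 and 334 CPM in combination and 288, 202 and 279.7 CPM in EZH2i tumours, and NDRG1, a hypoxia-induced gene, had a log2 fold change of -0.38 (SE 0.20). Nuclear non-coding RNAs had a median of -0.22 over 6 genes, and the sign turned without EZH2i 5-3 (0.02); MALAT1 measured 23872, 16268 and 20255 CPM in combination and 27942, 14781 and 27397 CPM in EZH2i tumours (log2 fold change -0.22, SE 0.25, unadjusted p = 0.402). Over the 42 lists with a tested member, 0 held a gene past the threshold.

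**Figure D3:**
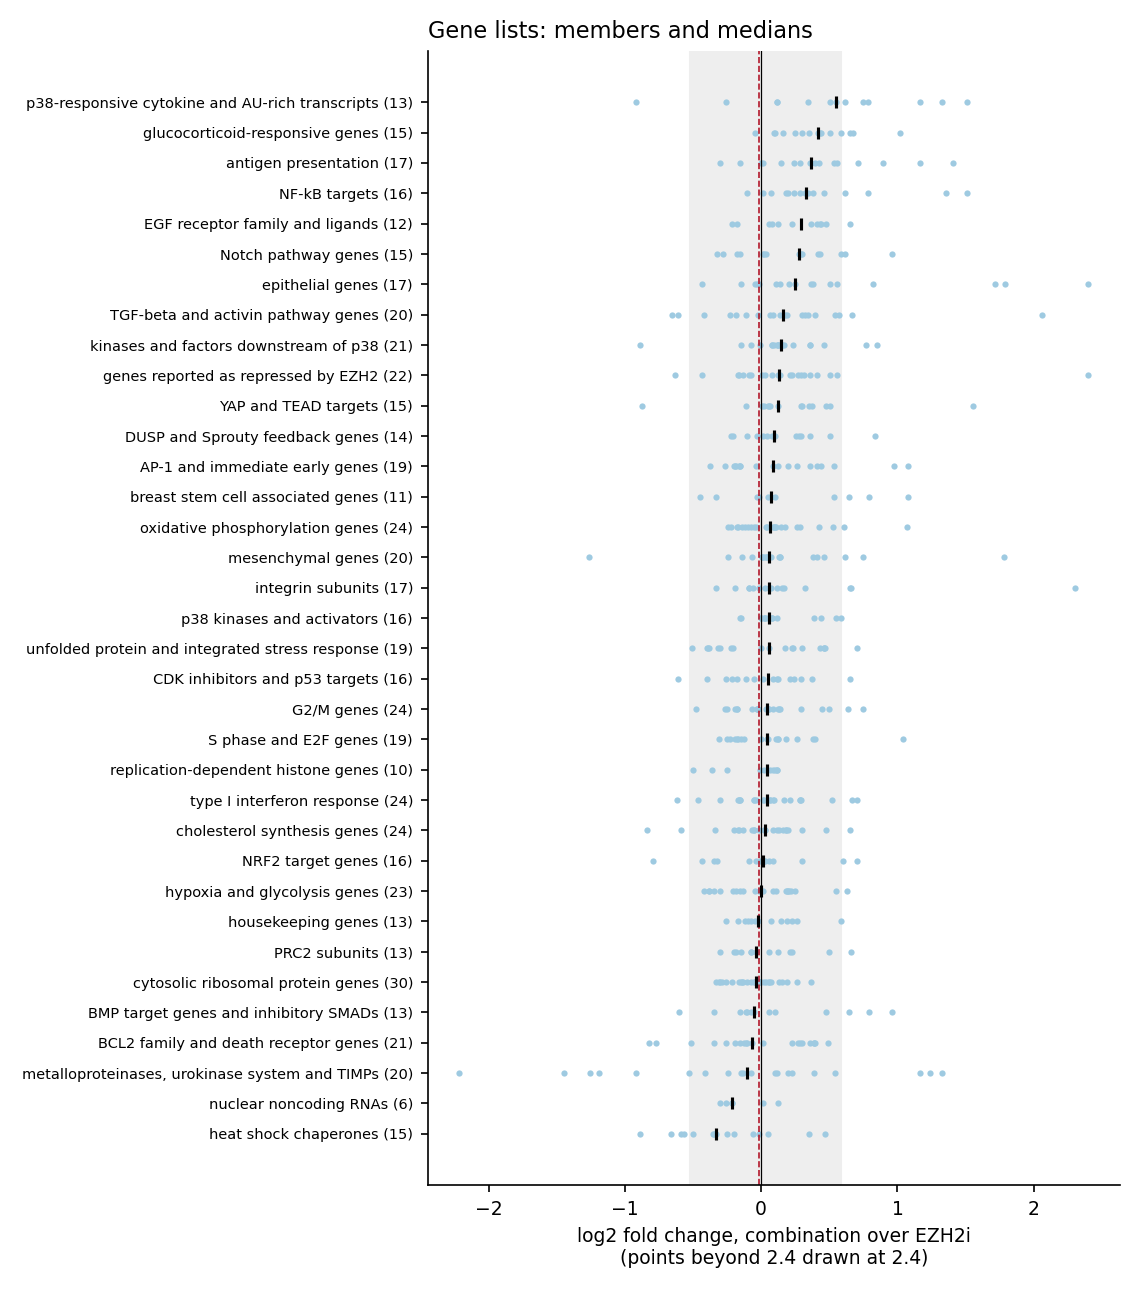
Log2 fold change of combination over EZH2i tumours (horizontal axis) for the members of each pathway, family and technical list (rows, number tested in brackets), with a black tick at the list median. The grey band holds the middle 90% of all genes (-0.52 to 0.59) and the dashed line their median (-0.016); cytokine messages (0.55) lie highest and heat shock chaperones (-0.33) lowest, and no member passed the threshold.

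The summed levels of markers of other cell types overlapped between the groups. In bulk tumours fewer cells of a type and less RNA per cell cannot be told apart, and a removal of reads from mouse host cells is not given in the sources used here. The host was mouse and reads were aligned to hg19. Whether these counts came from the human line or from mouse reads was not tested. The 10 fibroblast markers summed to 549.9 to 1152 CPM in combination and 615 to 984 CPM in EZH2i tumours, with COL1A1 contributing the most. The 13 macrophage markers summed to 43.9 to 55.8 CPM in combination and 38.6 to 58 CPM in EZH2i tumours, with CD163 at 0. The 11 endothelial markers summed to 194 to 203 CPM in combination and 185 to 348 CPM in EZH2i tumours, with ESAM contributing the most. The highest of these EZH2i sums came from EZH2i 5-4. The 12 skeletal muscle markers summed to 1.28 to 4.03 CPM in combination and 1.95 to 6.79 CPM in EZH2i tumours, with MYH7 at 0; TNNT1, above, is not on that list. All 3 muscle markers high enough to test were lower in the combination, with log2 fold changes of -2.99 (SE 1.70) for MYLPF, -2.26 (SE 2.27) for MYH1 and -0.41 (SE 1.81) for TNNI2. The list's median of -2.26 was further from 0 than that of any other list, it rested on few counts, and TNNI2 turned positive without EZH2i 6-1 (1.31). The part of muscle tissue in the difference of TNNT1 was not tested. Erythroid markers summed to 2.91 to 27.9 CPM in combination and 5.23 to 7.24 CPM in EZH2i tumours, with HBA1 and HBA2 at 0; HBB, a haemoglobin chain, had a log2 fold change of 2.01 (SE 0.90). Among endothelial markers TIE1 had -1.53 (SE 0.64). KRT1 and LOR of keratinocytes and S100A9, CSF3R, ELANE and FCGR3B of neutrophils were also at 0 in all 6 libraries. Over the 8 marker lists, neutrophil, adipocyte and luminal markers included, the two-sided exact permutation p ran from 0.2 to 1, where 0.1 is the smallest that 3 against 3 allows.

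The effect of the p38 inhibitor differed between tumours with and without the EZH2 inhibitor for 8 genes. This was tested as the log2 fold change of combination over EZH2i minus that of p38i over control. The p38i group held 2 libraries here, because 1 column could not be tied to a sample. The genes past the threshold were 0.0623% of those tested, with FAM155A, FKBP5 and ITGA10 on the positive side and HSPH1, DNAJB1, CSRP2, ACVR1C and ST3GAL6 on the negative side. In all, 1406 genes, 11% of those tested, had an unadjusted p under 0.05 for this difference. In all 8 genes the estimated p38 inhibitor effects had opposite signs with and without the EZH2 inhibitor, which choosing genes by this difference favours. The 95% interval of combination over EZH2i included 0 for ITGA10 (-0.24 to 0.57) and CSRP2 (-0.91 to 0.059). In 6 of the 8 genes every combination library lay between the EZH2i and the control libraries. The test takes in the combination against EZH2i values described above, so for genes named there it is not independent of them.

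HSPH1 had a log2 fold change of -0.59 (SE 0.16) in combination over EZH2i and 1.07 (SE 0.18) in p38i over control, which differ by -1.66 (SE 0.24, edgeR adjusted p = 0.0237). DNAJB1 had -0.67 in combination over EZH2i and 1.04 in p38i over control, a difference of -1.70 (SE 0.27, edgeR adjusted p = 0.0375). Both chaperone genes were thus lower with the p38 inhibitor where the EZH2 inhibitor was present and higher where it was absent, and neither gene passed in combination over EZH2i or in p38i over control (edgeR adjusted p in p38i over control 0.0663 for HSPH1 and 0.0743 for DNAJB1). Over the 15 heat shock genes, 14 were positive in p38i over control, with a median of 0.47, where 50% of all genes were positive. In combination over EZH2i 3 were positive, beside 47.8% of all genes. For the difference, 8 had an unadjusted p under 0.05, beside 11% of all genes. The combination over EZH2i values described above enter this difference. FKBP5 had 1.02 (SE 0.33) in combination over EZH2i and -2.20 (SE 0.38) in p38i over control, a difference of 3.22 (edgeR adjusted p = 0.0375). FAM155A measured 13.1 and 13.1 CPM in p38i and 36.2, 33.6 and 43.6 CPM in control tumours, so its log2 fold changes were 0.77 in combination over EZH2i and -1.53 in p38i over control (edgeR adjusted p of the difference 0.0237).

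ITGA10, a collagen-binding integrin subunit, measured 85.3, 115 and 84 CPM in combination, 82.5, 69.4 and 102 CPM in EZH2i, 80 and 69.2 CPM in p38i and 310.4, 253 and 232 CPM in control tumours. The libraries of all 3 treated groups overlapped, and each lay well below every control library. ITGA10 fell by 1.83 on the log2 scale in p38i against control (edgeR adjusted p = 0.00914), while its log2 fold change in combination over EZH2i was 0.17 (SE 0.19, 95% interval -0.24 to 0.57). CSRP2, a LIM domain protein of the actin cytoskeleton, measured 35.9, 32.4 and 41.2 CPM in combination, 37, 59.4 and 49.7 CPM in EZH2i, 64.9 and 44.6 CPM in p38i and 18.1, 12.2 and 17.9 CPM in control tumours. It rose in p38i against control (log2 fold change 1.77, edgeR adjusted p = 0.0416), and the combination and EZH2i libraries overlapped. ITGA10 and CSRP2 were the 2 genes past the threshold in p38i against control. Both were lost when either p38i library was left out, where the lone p38i library is assumed to vary like the other groups, and CSRP2 also without combination 8-1, 9-1 or 9-2, EZH2i 6-1, or control 1-1 or 1-3. The number of calls was 19 without EZH2i 5-3, 63 without EZH2i 5-4 and 58 without control 2-1.

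ACVR1C, a receptor of the activin and Nodal family, measured 8.53, 13.8 and 11.1 CPM in combination, 14.9, 27.1 and 16.3 CPM in EZH2i, 19.6 and 18.3 CPM in p38i and 5.34, 5.05 and 5.71 CPM in control tumours. ST3GAL6, a sialyltransferase, measured 58.2, 54.9 and 61.8 CPM in combination, 70.4, 117 and 77 CPM in EZH2i, 97.5 and 74.2 CPM in p38i and 29.6, 36.8 and 41.2 CPM in control tumours. In both the combination lay between EZH2i and control, and the differences were -2.62 and -1.85 (edgeR adjusted p = 0.0375 and 0.0478). CXCR4, the receptor of the chemokine CXCL12, measured 102, 107 and 236 CPM in combination and 179, 238 and 189 CPM in EZH2i tumours, beside 210.2 and 180.1 CPM in p38i and 65.8, 58.8 and 67.6 CPM in control tumours. Combination 9-2 was as high as the EZH2i libraries and the others were lower, and its difference did not pass (edgeR adjusted p = 0.147). ETV6, an ETS repressor, and BAHCC1, a chromatin protein, had differences of 1.27 and 2.85 that did not pass.

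For these 8 genes the differences kept their sign when any 1 library was left out, but passing the threshold depended on single libraries. None passed without combination 8-1, combination 9-1, EZH2i 5-4, p38i 3-3 or control 1-3, 1 passed without the other p38i library, and 4 genes were called without combination 9-2, 3 of them among the 8. Across all 12831 genes the log2 fold changes of combination over EZH2i and of p38i over control had a Pearson correlation of -0.20 and a Spearman correlation of -0.14, and 46.7% of genes had the same sign; genes are not independent replicates, and the groups share no library. Of the 1663 genes with an unadjusted p under 0.05 in p38i against control, 581 (34.9%) had the same sign in combination over EZH2i.

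**Figure D4:**
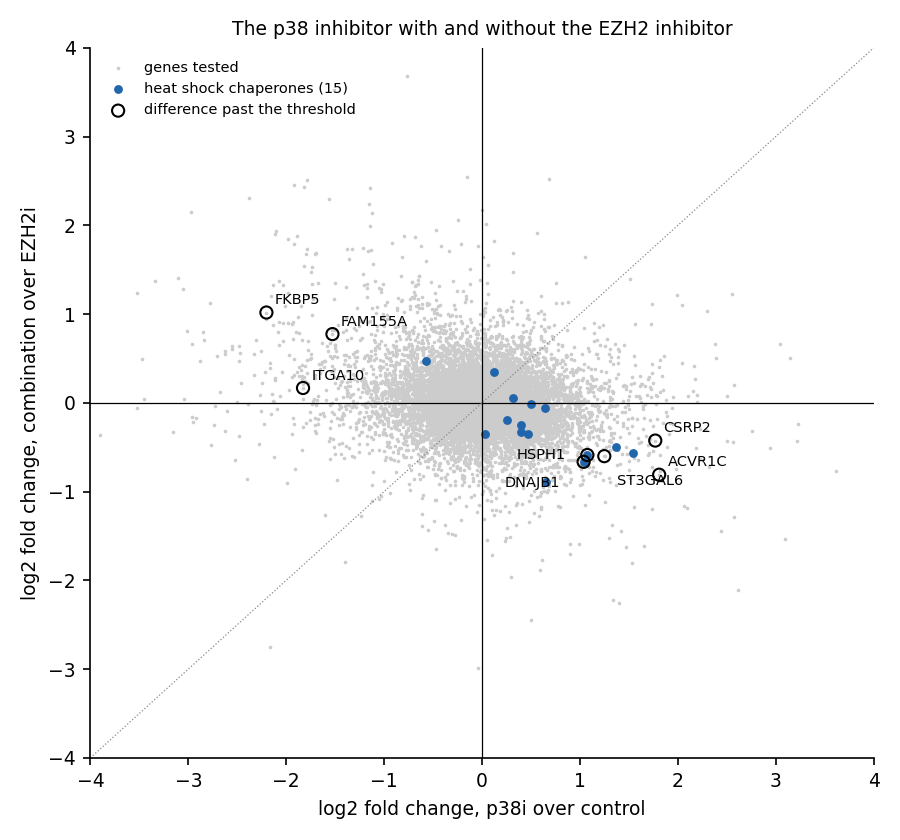
Log2 fold change of combination over EZH2i tumours (vertical axis) against that of p38i over control tumours (horizontal axis), 1 point per gene; 4 genes lie outside the axes. Heat shock chaperones (blue) lie mostly at the lower right, the 8 genes whose difference passed the threshold (open circles) lie at the lower right or upper left, and the dotted line marks equal effects.

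**Figure D5:**
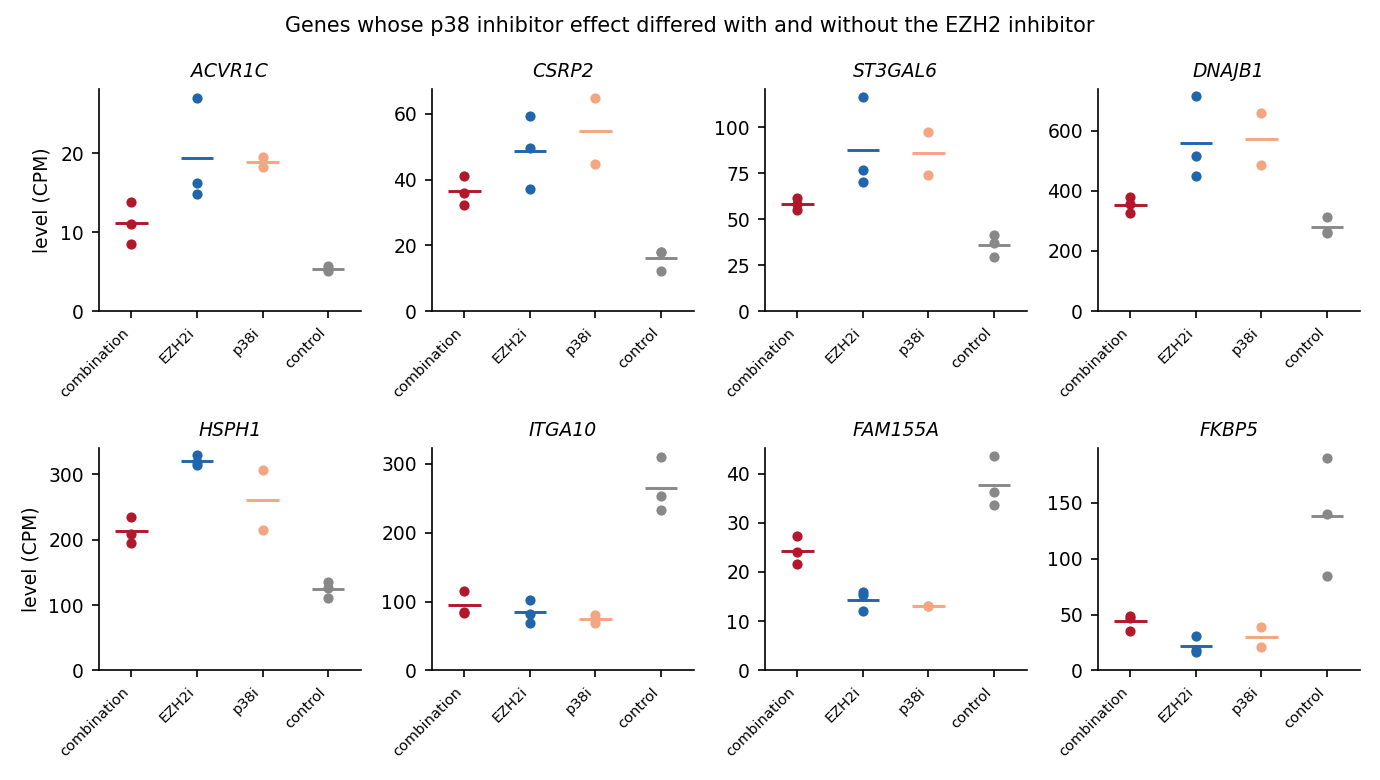
Level in CPM (vertical axes, from 0) of the 8 genes in each library, with combination, EZH2i, p38i and control from left to right and bars at the group means. In ITGA10 all treated libraries lie at 69.2 to 115 CPM and the controls at 232 to 310.4 CPM, and in HSPH1 the combination (195 to 235 CPM) lies between EZH2i (314 to 329 CPM) and control (111 to 135 CPM).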

How the data were processed

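Tumour RNA was sequenced, and the authors deposited 1 table of raw counts per gene symbol. The submitters' processing notes name Trim Galore 0.5.0, STAR 2.6.0 and the build hg19. The counting tool, its strand setting and any removal of mouse reads are not given in the sources used here. Per the labels, 1.3 µg of total RNA entered each library, and the labels name both a SMARTER mRNA-Seq kit and QuantSeq, which sample transcripts differently, so levels per gene length were not computed.

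Of 12 columns, 11 were used. The column headed 5 is named by 2 p38i samples and counted as a p38i library without its own number, and 1 column that no label names was left out. The 3 lines that name no gene held 0 counts. Totals ran from 2208771 to 4467942 counts per library, which limits the precision for genes with few counts. CPM are counts over TMM-scaled library size, and marker sums are over library totals.

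The groups were fitted together in edgeR 4.0.16 (R 4.3.3; filterByExpr, TMM, robust quasi-likelihood fit), with two-sided tests and Benjamini-Hochberg adjustment over all 12831 genes at 0.05. Standard errors follow from the fitted statistic. DESeq2 1.42.0, limma-voom (limma 3.58.1), other scalings and filters, and leaving out each library were alternatives.

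The comparison, the members and the gene lists were chosen with earlier results of these data known. Named are the 12 genes per direction of smallest p with a mean of at least 5 CPM and groups apart, the 4 of smallest p and the 1 of highest level in each list, the p38 kinases, MAPKAPK2 and EZH2, and the 5 per direction of smallest p for the difference between the p38 inhibitor effects. Promoter stretches come from a RefSeq table of GRCh38.p14, whose coordinates were not mixed with hg19. Some results the rule would name are not reported here.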

Additional observations from a re-analysis of the deposited data

Results flagged for a closer look

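For 8 genes the effect of the p38 inhibitor differed between tumours with and without the EZH2 inhibitor by edgeR's test of the difference itself. The value given is the log2 fold change of combination over EZH2i minus that of p38i over control. It was 2.30 for FAM155A, 2.00 for ITGA10 and 3.22 for FKBP5, and -1.66 for HSPH1, -1.70 for DNAJB1, -2.19 for CSRP2, -2.62 for ACVR1C and -1.85 for ST3GAL6. The edgeR adjusted p was 0.0237 for FAM155A, HSPH1 and ITGA10, 0.0375 for FKBP5, DNAJB1, CSRP2 and ACVR1C, and 0.0478 for ST3GAL6. In all 8 genes the sign of the difference was the same in the 18 alternatives tried. The adjusted p passed in 13 of them for HSPH1, in 12 for ITGA10 and FAM155A, in 8 for CSRP2, DNAJB1 and FKBP5, in 7 for ST3GAL6 and in 6 for ACVR1C. Over the 8 genes the largest adjusted p in any alternative ran from 0.347 (FAM155A, HSPH1, ITGA10, FKBP5 and ACVR1C) to 0.409 (ST3GAL6).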

How the results depend on the processing

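In combination against EZH2i, 0 genes passed in edgeR under all alternatives tried, and 1 (PTX3) passed in DESeq2. In alternatives other than DESeq2 the smallest adjusted p was 0.2725 (edgeR without a filter on low counts). In p38i against control, 2 genes passed, against 187 with DESeq2, 186 without a filter, 1 with limma-voom and 1 without the robust option, and 0 to 63 when 1 library was left out. For the difference, 8 passed, against 102 with DESeq2, 102 without a filter (all 8 among them in both), 3 with limma-voom, 4 without the robust option, and 0 to 11 when 1 library was left out. The cause was not tested. Leaving out the 2 p38i libraries, chosen after seeing the data, gave 0 calls in combination against EZH2i. Of 217 named genes, 39 changed the sign of their log2 fold change in combination against EZH2i in at least 1 alternative and 178 did not, and 26 of 42 list medians changed sign in at least 1. No paired analysis was possible because the groups share no replicate numbers. With totals of 2208771 to 4467942 counts, the 95% interval lay within a 2-fold change for 67.6% of genes. For the other genes the interval left a 2-fold change open. These intervals are not a limit of detection, since PTX3 with a log2 fold change of 1.91 did not pass in edgeR.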
